A study of Mus musculus with 7 samples.

Results

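Primary mouse embryonic fibroblast (MEF) lines with and without a 4.3 Mb deletion of mouse chromosome 4, band 4E, were compared. The genes described here are those that differed between them in reads assigned to the C57BL/6J allele. They are all 326 genes of the deposited table for reads assigned to the C57BL/6J allele, beside 15531 genes listed as tested when the reads of both alleles were summed. The deletion lies on the other homologue, so every cell compared kept an intact C57BL/6J copy of the whole genome.

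RNA was taken at passage 4 from 7 MEF lines made from embryos at embryonic day 13.5. The 4 Df/+Bl6 lines carry the engineered deletion (Df) on a chromosome 4 of 129S5/SvEvBrd origin and a normal C57BL/6J homologue. The 3 +129/+Bl6 lines are F1 hybrids of the same strains with both homologues intact. All lines were harvested shortly after they reached confluence, and neither their litters nor their sexes are given. Stranded paired-end polyA+ reads were aligned by the authors without mismatches to a transcriptome of each strain. Reads alike in both strains cannot tell the alleles apart, and how these were counted is not given in the sources used here.

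Each value below is a mean normalized count for the C57BL/6J allele, over 4 Df/+Bl6 or 3 +129/+Bl6 lines, and each difference is the log2 ratio of the Df/+Bl6 mean to the +129/+Bl6 mean. The table holds no value for a single line, so there is no SD, no check between replicates and no overlap of groups to report, and the depth of the lines is unknown. Membership of the table is itself the authors' DESeq call at an FDR of 0.05, and "rose" or "fell" refers to that call. Since the call chose the genes, the directions and sizes given here are a description.

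Dividing cells switch on their genes in waves. Genes for DNA synthesis are turned on by E2F factors as cells enter S phase, and genes for chromosome segregation are held off by the DREAM complex in resting cells and turned on later by its MuvB core with B-MYB and FOXM1. MuvB binds a cell cycle homology region (CHR) near the start site, and NF-Y often binds a CCAAT box beside it. MEFs that have reached confluence divide less and deposit extracellular matrix, and both programmes are well known in these cells. A gene with usable strain variants reports each homologue separately.

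Of the 326 genes, 181 rose and 145 fell in Df/+Bl6 lines. As a share of the 15531 genes listed as tested, that is 2.09% in either direction, 1.16% higher and 0.934% lower. Which genes were tested on the C57BL/6J allele is not listed in the files used here, so the share among those genes is unknown. The median difference was 0.99 for the genes that rose and -0.90 for those that fell, and 88 rose and 60 fell by at least 1 on the log2 scale. The rises started from lower mean counts, which are not corrected for gene length, than the falls. The median +129/+Bl6 mean was 276 for genes that rose and 1392 for genes that fell. The median Df/+Bl6 means lay closer together, at 538 and 742. Genes were sorted by the ratio of these 2 means, so part of the gap in +129/+Bl6 means follows from the sorting. Of the 25 genes with a mean over all lines under 100, 68.0% rose and none differed by less than 1.03. Of the 33 with a mean of 3000 and over, 18.2% rose, and differences down to 0.53 were in the table. Another annotated gene overlaps 121 of the 326, such as Mtor on the strand opposite Angptl7, and whether the counting used strand is not given in the sources used here.

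**Figure D1:**
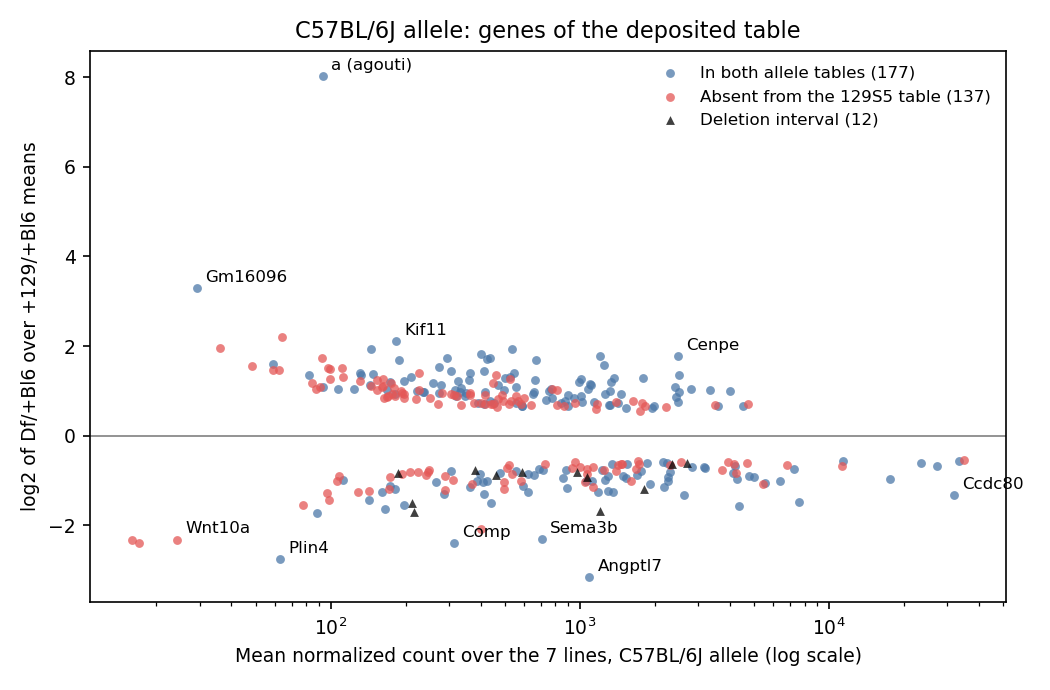
Mean normalized count of the C57BL/6J allele over the 7 lines (log scale) against the log2 ratio of Df/+Bl6 to +129/+Bl6 means, 1 point per gene, with triangles for the 12 genes of the deletion interval. Small differences appear only at high means, most points at a mean of 3000 and over lie below 0, and the agouti gene stands alone at 8.03.

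The genes that rose were in large part genes of the cell division cycle. The 9 lists of replication, repair, chromatin and mitosis genes together hold 309 genes listed as tested, of which 75 were in the table, all 75 higher and 0 lower. That is 24.3% of the lists, against 1.16% higher among all genes tested, and these 75 make up 41.4% of the 181 genes that rose. Their median difference was 1.05, against 0.99 for all genes that rose. In the combined comparison, which uses the same lines, 233 of the 309 were higher and 0 lower, where 8.67% of the 15531 genes were called, 5.13% higher and 3.54% lower. The lists were chosen with earlier results of these data known, and their direction is no independent evidence.

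Promoter sequence was not used in choosing these genes. A RefSeq promoter (GRCm38.p6, 250 bases before to 50 after the start site) was matched for 60 of the 75, and this grouping was chosen after values were seen. Of the genes that rose only 72.4% and of those that fell only 76.6% had a promoter, too few for a comparison of the groups, and that check is void. Of the 60, 5 are printed to show CHR and CCAAT matches before the start site of genes that rose. Each line gives the 120 bases that end at the base before the start site, 5′ to 3′ on the gene's strand, with every CHR (TTTGAA or TTCGAA, or the reverse complement) and CCAAT (or ATTGG) in capitals.

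Kif11: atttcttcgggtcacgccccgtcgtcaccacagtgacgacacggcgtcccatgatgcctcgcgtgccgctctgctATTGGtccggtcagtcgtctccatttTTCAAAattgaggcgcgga
Top2a: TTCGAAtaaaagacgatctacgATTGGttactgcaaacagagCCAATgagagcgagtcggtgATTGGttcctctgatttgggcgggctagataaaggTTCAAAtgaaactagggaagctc
Kntc1: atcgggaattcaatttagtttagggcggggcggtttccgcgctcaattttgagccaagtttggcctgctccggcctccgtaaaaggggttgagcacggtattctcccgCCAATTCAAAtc
Ckap2l: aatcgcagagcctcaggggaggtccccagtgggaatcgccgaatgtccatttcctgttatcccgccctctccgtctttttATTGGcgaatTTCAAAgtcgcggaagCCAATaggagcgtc
Ccnf: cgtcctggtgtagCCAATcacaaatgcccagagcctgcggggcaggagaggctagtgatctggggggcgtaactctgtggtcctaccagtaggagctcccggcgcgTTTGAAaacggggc

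These lie at chr19:37376262-37376381 (+ strand) for Kif11, chr11:99024190-99024309 (- strand) for Top2a, chr5:123749606-123749725 (+ strand) for Kntc1, chr2:129297213-129297332 (- strand) for Ckap2l and chr17:24251410-24251529 (- strand) for Ccnf. In Kif11 a TTCAAA starts 19 bases before the start site and an ATTGG starts 45 before it. Top2a holds 2 CHR and 3 CCAAT matches. In Kntc1 the matches share 1 base. In Ccnf the CHR match starts 14 bases before the start site and the CCAAT 107 before it, so the spacing differs between the promoters. The 5 were picked among 8 of the 60 genes that hold both motifs within these 120 bases.

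Of the 60 promoters, 31 held a CHR match on either strand, or 51.7% (exact 95% interval 38.4 to 64.8), against 19.4% of all 27025 promoters. CCAAT matches were in 66.7% (53.3 to 78.3) against 37.9%, and E2F matches (TTTCCCGC, TTTCGCGC, TTTGCCGC or TTTGGCGC) in 15.0% (7.10 to 26.6) against 2.32%. TATAAA was in 0 of 60, which allows up to 5.96%, against 14.2%. CHR and CCAAT occurred together in 40.0% against 7.70%. Genes of the same lists that are not in the table also held these motifs more often than all promoters did. Of their 194 promoters, 37.1% (30.3 to 44.3) held a CHR match, 58.2% a CCAAT and 20.1% an E2F match. The intervals of these genes and of the 60 overlap for each of the 3 motifs.

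The CHR matches lay around the start site. From 25 bases before to 50 after it, a window chosen after the positions were seen, 41.7% of the 60 promoters held one, against 19.6% of the list genes not in the table and 3.98% of all promoters. Counted before the start site alone, the CHR share of the 60 dropped to 23.3% (13.4 to 36.0), against 27.3% of the list genes not in the table and 17.4% of all promoters, and the other matches lie in the first transcribed bases. A match of 6 letters is not evidence that the site is bound.

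**Figure D2:**
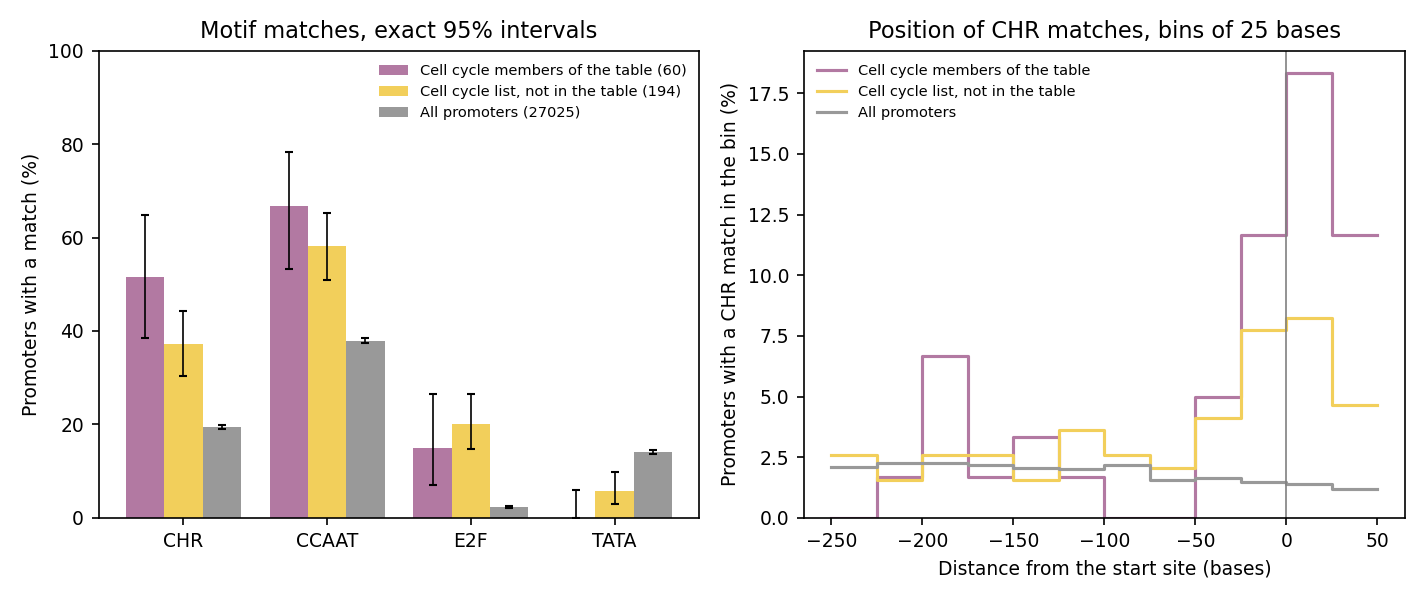
Left, percent of promoters (250 bases before to 50 after the start site) with a match to each motif on either strand, for cell cycle genes of the table, cell cycle list genes not in the table and all promoters, with exact 95% binomial intervals. Right, percent of promoters with a CHR match centred in each bin of 25 bases, which for the cell cycle genes of the table is highest, 18.3%, in the bin just after the start site.

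Kinetochore genes, which attach chromosomes to the spindle, had 10 of 37 tested members in the table, all higher, with a median of 1.53. Casc5 (Knl1), the scaffold of the outer kinetochore, went from 204 to 780 (1.93). Cenpe, a kinesin that moves chromosomes to the spindle equator, went from 1043 to 3574 (1.78). Cenpf, a large outer kinetochore protein, went from 27.3 to 82.2 (1.59), beside 2.05 in the 129S5 table. Of the 177 genes in both allele tables outside the deletion interval, Cenpf stood furthest below its 129S5 value.

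Spindle and motor genes had 13 of 42 in the table, all higher, with a median of 1.25, and 5 of the 13 overlap no other annotated gene. Kif11, the kinesin that pushes spindle poles apart, had the largest difference among genes with a mean of at least 100 in the higher group after the agouti gene, from 63.6 to 274 (2.11). Cep55, which acts in the final cut between daughter cells, went from 186 to 607 (1.70), and Kif14, a cytokinesis kinesin, from 153 to 416 (1.45). Hmmr, a spindle assembly protein, went from 47.7 to 135 (1.50). Top2a, which untangles DNA before segregation, went from 294 to 951 (1.69) and the condensin II subunit Ncapg2 from 506 to 1741 (1.78). These are the only 2 of 26 genes in the condensin, cohesin and topoisomerase list, 24 of which were higher in the combined comparison.

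Mitotic kinase, checkpoint and exit genes had the largest share, 15 of 44, all higher, with a median of 1.05. Bub1, a checkpoint kinase at kinetochores, went from 166 to 582 (1.81), and Ttk, the kinase that starts checkpoint signalling, from 83.4 to 267 (1.68). Sgol1, which protects centromeric cohesion, went from 207 to 566 (1.45). Ccna2, cyclin A2, went from 1327 to 3411 (1.36). Plk1, a kinase used from mitotic entry to exit, had one of the 5 highest mean counts of the genes that rose, from 2571 to 5110 (0.99).

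For S phase, 14 of 51 replication genes were in the table, all higher, with a median of 0.98, and 9 of the 14 overlap no other gene. Cdc6 and Orc1, which load the replicative helicase at origins, went from 22.8 to 67.2 (1.56) and from 74.6 to 174 (1.22). Wdhd1, a replisome scaffold, went from 658 to 1448 (1.14), and 5730590G19Rik (Ticrr), which helps origins fire, from 85.8 to 187 (1.12). All 3 of the 10 deoxynucleotide synthesis genes in the table rose. Thymidylate synthase Tyms went from 483 to 991 (1.04), and the ribonucleotide reductase subunits Rrm2 and Rrm1 went from 1612 to 3188 (0.98) and from 1668 to 3018 (0.86).

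Homologous recombination and checkpoint repair genes had 11 of 37 in the table, all higher, with a median of 0.99, but only 3 of the 11 overlap no other gene. Exo1, which resects DNA ends, went from 126 to 417 (1.73), beside 1.40 in the 129S5 table. Brca1, which promotes repair on the sister chromatid, went from 29.4 to 80.9 (1.46). The helicase Blm went from 67.9 to 178 (1.39), and Eme1, a partner of the nuclease Mus81, from 98.4 to 208 (1.08). Of these 11, 6 were absent from the 129S5 table, Brca1 and Eme1 among them.

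Of 23 G1/S regulators, 3 rose. The MuvB partner Mybl2 went from 283 to 704 (1.31), the mitotic transcription factor Foxm1 from 421 to 833 (0.99) and cyclin E1, Ccne1, from 1170 to 1807 (0.63). Of 40 chromatin and DNA methylation genes, 4 rose. Suv39h2, which methylates histone H3 in heterochromatin, went from 55.8 to 212 (1.93). Hmgn2, a nucleosome-binding protein, went from 508 to 1033 (1.03), the histone chaperone Anp32e from 404 to 670 (0.73) and the maintenance methyltransferase Dnmt1 from 1502 to 2301 (0.62).

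**Figure D3:**
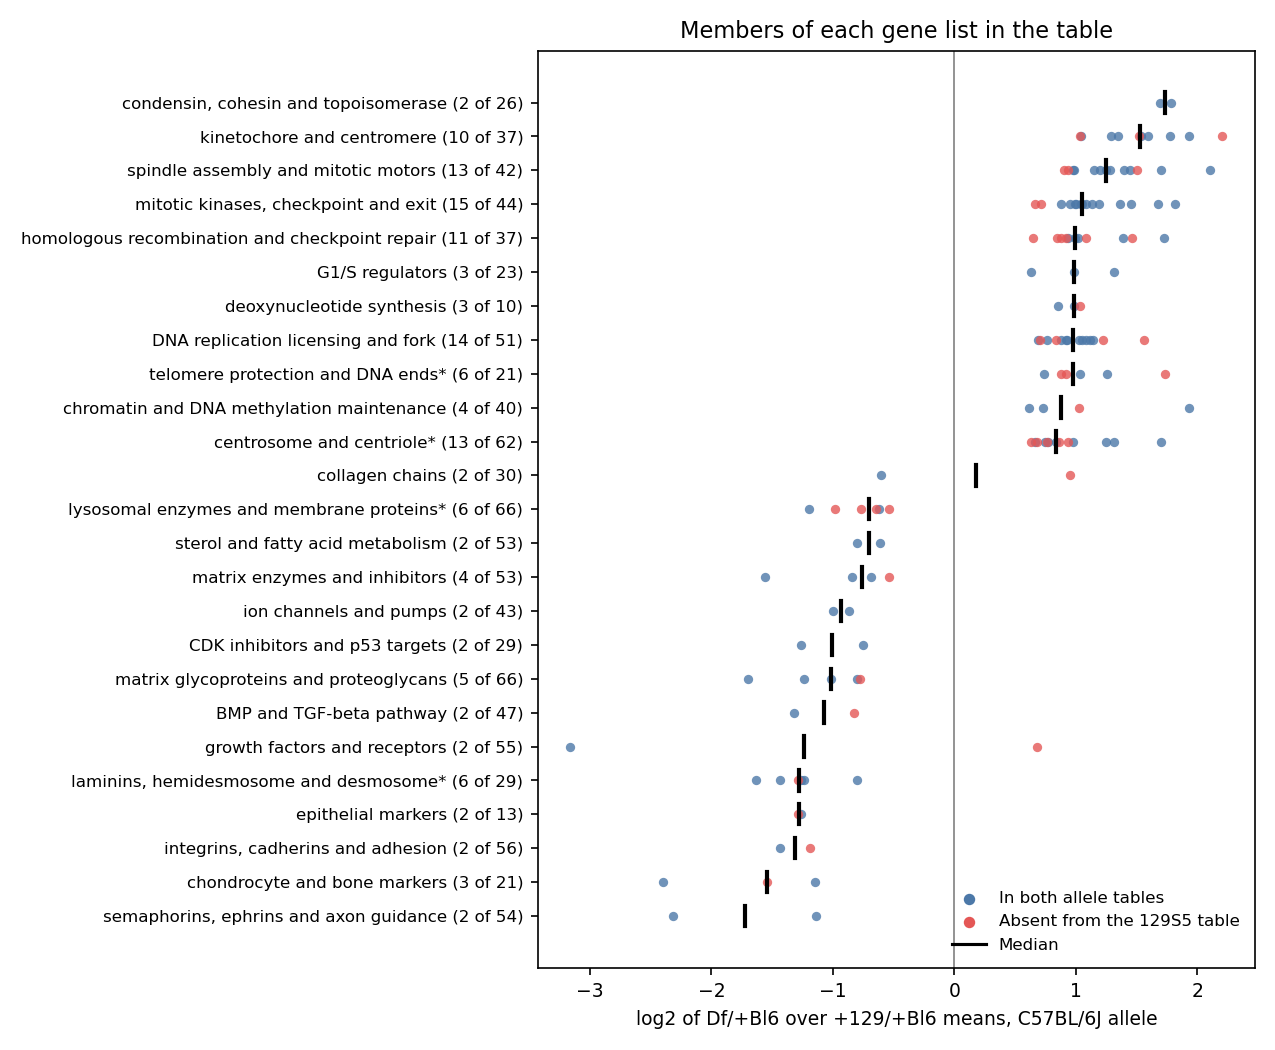
log2 ratio of Df/+Bl6 to +129/+Bl6 means for each list with at least 2 genes in the table, 1 point per gene, coloured by presence in the 129S5 table. Black bars are medians, the numbers give genes in the table of genes tested, and a star marks lists chosen after values were seen. Every point of the cell cycle lists is above 0, and every point of the matrix glycoprotein, matrix enzyme and adhesion lists is below it.

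Of the 88 genes that rose by at least 1, 47 were on the cell cycle lists, and Shcbp1 was among the rest. Shcbp1, an Shc-binding protein of dividing cells, went from 187 to 622 (1.73). The other 4 of the 5 highest mean counts among the genes that rose were these: Tardbp (TDP-43, an RNA-binding protein) went from 3480 to 5681 (0.71), Ahctf1 (ELYS, a nucleoporin that starts pore assembly) from 3408 to 5360 (0.65), Rdx (radixin, which ties actin to the membrane) from 2717 to 4278 (0.65) and Ptn (the growth factor pleiotrophin) from 2613 to 4178 (0.68).

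Of the 145 genes that fell, 117 were on none of the 38 main lists, as were 103 of the 181 that rose. Angptl7, a secreted angiopoietin-like protein, fell furthest, from 2222 to 249 (-3.16), and the 129S5 table lists it at -3.38. Plin4, a lipid droplet coat protein, went from 122 to 18.1 (-2.75). Sema3b, a secreted guidance cue, went from 1299 to 261 (-2.31). The protease inhibitor Serpine2 went from 7021 to 2382 (-1.56), and Anxa8, a membrane-binding annexin, from 11968 to 4309 (-1.47).

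Of 66 matrix glycoprotein and proteoglycan genes, 5 were in the table, all lower, with a median of -1.02, 1 of them Megf6 in the deletion interval, and 3 of the 5 overlap no other gene. Of 53 matrix enzymes and inhibitors, 4 were in it, all lower, with a median of -0.76. The shares, 7.58% and 7.55%, compare with 0.934% lower among all genes tested. Lama5 and Lamb2, laminin chains of basement membranes, went from 1947 to 824 (-1.24) and from 3050 to 1752 (-0.80). Lama3, a laminin chain of epithelial anchoring that is not on this list, went from 270 to 87.1 (-1.63). Svep1, a large adhesive matrix protein, went from 8931 to 4418 (-1.02). The collagen cross-linking enzyme Loxl4 went from 5533 to 3088 (-0.84). Mmp2 (gelatinase A) and Ctsl (cathepsin L) were among the 5 highest mean counts of the genes that fell, from 34849 to 21688 (-0.68) and from 42545 to 29384 (-0.53). The other 3 were Ftl1 (ferritin light chain), from 40753 to 27665 (-0.56), Ccdc80, a matrix-associated protein, from 48368 to 19369 (-1.32), and the fibrillar collagen chain Col5a2, from 29301 to 19292 (-0.60). Of the 30 tested genes on the collagen chain list, 2 were in the table, Col5a2 and Col27a1, which rose (126 to 244, 0.95). Their share, 6.67%, compares with 2.09% in either direction among all genes tested. Col28a1, which is not on that list, fell (-1.21).

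Some falls were in genes of metabolism. Me3, a mitochondrial malic enzyme, went from 146 to 44.5 (-1.72). Pltp, a phospholipid transfer protein, went from 316 to 108 (-1.55), and Cdo1, which breaks down cysteine, from 696 to 247 (-1.50).

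Of 21 chondrocyte and bone markers tested, 3 were in the table, all lower, a share of 14.3% against 0.934% lower among all genes tested. Comp, a cartilage matrix protein that fibroblasts also make, went from 582 to 110 (-2.40), Hapln1, which links hyaluronan to aggrecan, from 124 to 42.4 (-1.55) and Sox6, a cartilage transcription factor, from 527 to 238 (-1.15). The defining markers Col2a1 and Acan were tested and are not in the table. Of 13 epithelial markers tested, Dsp and Perp (15.4%) were in it, both lower, while Cdh1 was tested and is not in it. In bulk RNA, fewer cells of a type and less RNA per cell cannot be told apart. None of the macrophage, endothelial, Schwann and neural crest, hepatocyte, skeletal muscle or fibroblast markers was in the table, although 6 of the 20 Schwann and neural crest markers tested, Sox10 and Erbb3 among them, were lower in the combined comparison. The part of other cell types in the falls was not tested. All 19 fibroblast markers, Col1a1 and Pdgfra included, were among the genes tested, of which 1 was higher and 1 lower in the combined comparison.

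No gene of the contractile, interferon, glycolysis, oxidative defence, ribosomal protein, imprinted, sex-linked or Hox lists was in the table. For some of these lists the absence says little. The Df/+Bl6 embryos had C57BL/6J mothers, and 23 of the imprinted genes tested are listed as expressed from the paternal copy. The Y genes of the sex-linked list were not among the genes tested. Of 29 CDK inhibitor and p53 target genes, 2 were in it, both lower, namely Perp and Cdkn2b, which encodes a CDK inhibitor (-1.27 and -0.75). Of 46 Wnt pathway genes only Wnt10a, a Wnt ligand, was in it, at a low level, from 44.5 to 8.91 (-2.32). Bmp4 and Tgfbr2, a ligand and a receptor, were the 2 of 47 BMP and TGF-beta genes, both lower (-1.32 and -0.83).

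Of the 326 genes, 137 were absent from the 129S5 table, 79 higher and 58 lower. This divides as the 189 genes of both allele tables do, 102 higher and 87 lower. Absence from a table of called genes is not a test of the 129S5 allele, and whether the alleles differ was not tested. The absent genes had lower levels (median mean over all lines 402 against 716) and smaller differences (median size 0.88 against 1.01). Of the 75 cell cycle genes, 20 were absent. Of the 137, 107 were called in the combined comparison and 30 were in neither other table.

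The 8 largest rises among absent genes with a mean of at least 100 in the higher group were of Pif1, Ska1, Hmmr, Etaa1, E330016A19Rik, Wbp5, Igsf9 and Slfn9. Pif1, a helicase that unwinds G-quadruplexes, went from 39.7 to 132 (1.73), and Ska1, which couples kinetochores to microtubule ends, from 53.6 to 154 (1.52). Etaa1, an activator of the kinase ATR, went from 48.8 to 137 (1.49). Slfn9, of the Schlafen family, went from 290 to 702 (1.28), and E330016A19Rik from 117 to 308 (1.39).

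Among the largest falls of absent genes, Gm15698 went from 714 to 168 (-2.09). Dsp (desmoplakin, which anchors keratin at desmosomes) went from 147 to 60.1 (-1.29), Itga11, a collagen-binding integrin, from 728 to 320 (-1.19) and the collagen chain Col28a1 from 426 to 184 (-1.21). Rprm, a p53-induced inhibitor of G2 progression, went from 193 to 80.3 (-1.27). A gene model named Nme2 that spans Nme1 and Nme2 went from 213 to 90.3 (-1.24). Its reads cannot be told from those of the nucleoside diphosphate kinase genes it overlaps, and it is uncertain. The separate Nme2 entry, called on both alleles, went from 6504 to 3504 on the C57BL/6J allele (-0.89), beside -0.64 for 129S5.

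**Figure D4:**
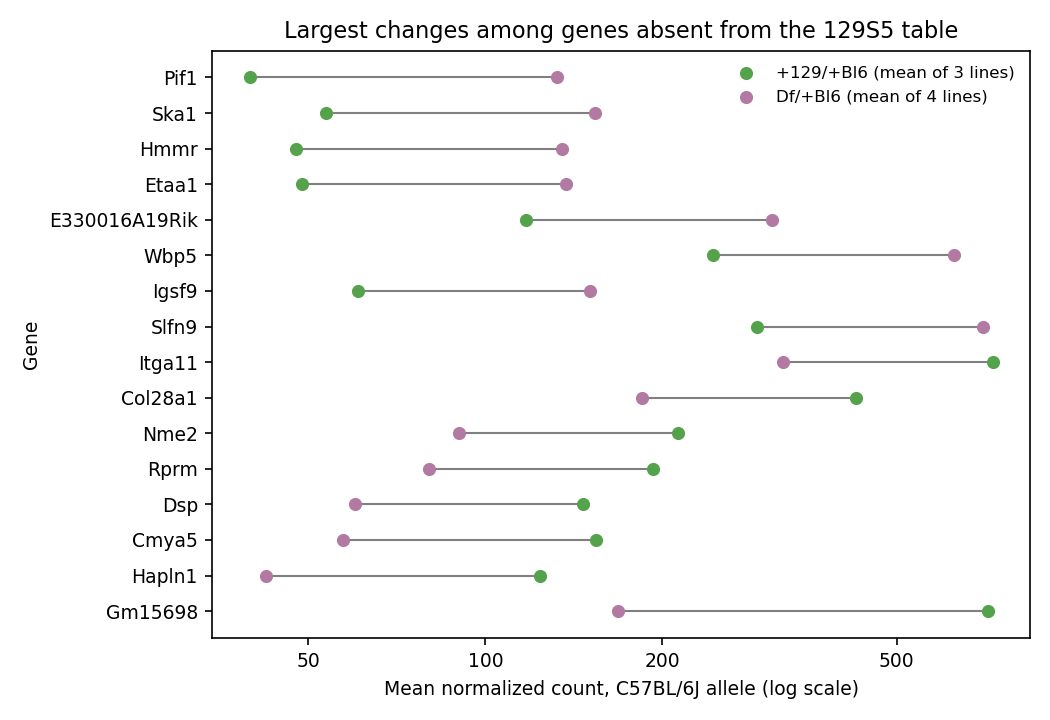
Mean normalized count of the C57BL/6J allele (log scale) in +129/+Bl6 (green) and Df/+Bl6 (purple) lines for the 8 largest rises and 8 largest falls among genes absent from the 129S5 table. Gm15698 has the longest line among the falls, from 714 to 168, and Pif1 the longest among the rises, from 39.7 to 132.

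Of the 30 genes in neither other table, 16 rose and 14 fell, and 7 differed by at least 1. Wbp5, on the X chromosome, went from 244 to 625 (1.36), and the sexes of the lines are not given. Igsf9, an immunoglobulin superfamily adhesion protein, went from 60.7 to 151 (1.31), Zdhhc2, a palmitoyltransferase, from 55.3 to 133 (1.26) and Cacybp, a calcyclin-binding protein, from 86.3 to 203 (1.23). The other 3 fell, namely Hapln1 (above), Cmya5, a muscle-enriched anchoring protein, from 154 to 57.3 (-1.43), and Tmem8, from 149 to 74.3, just past a difference of 1.

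The deletion was bracketed here by its flanking genes, from the end of Rere to the start of Ski (chr4:149996075-154528184, NCBI37), an interval somewhat wider than the 4.3 Mb deletion itself. Its C57BL/6J copy is present in all 7 lines, and 12 genes of it were in the table, all 12 lower, with a median of -0.85. How many genes of the interval were among those tested was not counted here, so no share is given. In the 129S5 table, where the Df chromosome lacks them, the 12 genes stand between -8.49 and -6.29. In the combined comparison, which sums both alleles, they stand between -1.73 (Megf6) and -0.66 (Phf13), with a median of -0.98. The C57BL/6J values are as the authors assigned the reads, and the part of reads alike in both strains was not tested. Whether the intact copies themselves gave less RNA was not tested either. Megf6, a secreted EGF-repeat protein, went from 358 to 110 on the C57BL/6J allele (-1.70). Tprgl, a synaptic vesicle protein, went from 1984 to 623 (-1.67) and Plekhg5 from 337 to 120 (-1.50). Park7 (DJ-1, an oxidative stress sensor) went from 2675 to 1173 (-1.19).

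The remaining 8 fell by less than 1. The orphan receptor Gpr153 went from 1460 to 771 (-0.92), Dnajc11, a mitochondrial cochaperone, from 625 to 341 (-0.87) and BC046331 from 249 to 140 (-0.83). Klhl21, a ubiquitin ligase adaptor of cytokinesis, went from 780 to 444 (-0.81) and the acyl-CoA thioesterase Acot7 from 1295 to 742 (-0.80). Phf13, which reads methylated histone H3, went from 500 to 293 (-0.77), Icmt, which methylates prenylated proteins, from 2938 to 1891 (-0.64), and Vamp3, a vesicle SNARE, from 3360 to 2198 (-0.61).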

How the data were processed

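RNA-seq libraries of 7 MEF lines, 4 Df/+Bl6 and 3 +129/+Bl6, were compared. Groups and line numbers come from the sample labels. The authors used GSNAP to align reads to a C57BL/6J and a 129S5/SvEvBrd transcriptome (Ensembl 72, GRCm38; longest transcript per gene), allowing no mismatch. Pairs were kept where both mates had 1 best location in the same gene. Genes with fewer than 10 reads for each allele in both genotypes were removed, and the authors normalized the counts with DESeq. The deposited signal values are the authors' mean normalized counts per genotype, for genes past their FDR of 0.05, in 3 tables (C57BL/6J allele, 129S5 allele, both combined) that were normalized separately and share all lines. Levels were not compared between tables. The tables also hold the authors' fold changes, p-values and adjusted p-values, which were not used. A further file has 9 unnamed value columns, more than the lines, which were not used. Its 15531 gene identifiers served as the genes tested.

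The genotype of each mean column was checked from the mean over all lines, which equals the mean weighted by 4 and 3 lines in every gene. From the means, log2 ratios of Df/+Bl6 over +129/+Bl6 were computed without a pseudocount, and each list was described by counts and medians, with no test. Without values per line, depth is unknown and no interval of a ratio can be given. The members and lists were chosen with earlier results of these data known, and 4 lists and 7 symbol families after the values were seen. The script was tested on simulated tables.

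Named genes have a mean of at least 100 in the higher group and lie outside the deletion: the 12 largest rises and falls, 8 of each among genes absent from the 129S5 table, and the 5 highest means in each direction. To these were added the 4 largest differences of each list with at least 3 genes in the table, all genes of the deletion, and genes absent from both other tables that differ by at least 1. The condition on the mean was not applied to the genes added from lists. Other genes in the text were picked once their values were known, and 1 gene that the rule takes is not reported here. Positions come from the GENCODE annotation of NCBI37 by gene identifier (321 of 326 genes). Promoters come from RefSeq, GRCm38.p6, by symbol, with the first start listed for each gene, and 242 of the 326 matched. Binomial intervals are exact (Clopper-Pearson). Python 3.11.15, numpy 2.4.6, pandas 2.3.3, scipy 1.17.1 and matplotlib 3.10.9 were used.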

Additional observations from a re-analysis of the deposited data

How the results depend on the processing

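No paired analysis was possible because the tables hold group means and no value per line. For the same reason no line could be left out in turn. Of the alternatives tried, 53 values for whole comparisons stayed within 1.5 times or within the spread of the genes and 13 moved. Genes were split by direction before each count and median, so these values could not show a change of direction. With a difference of at least 1 on the log2 scale, 88 genes rose and 60 fell (181 and 145 otherwise), 30 and 20 of those absent from the 129S5 table (79 and 58), with a median rise of 1.24 (0.90), and 47 of the cell cycle genes rose (75). Without the 121 genes that overlap another annotated gene, an alternative added after the data were seen, 111 rose, 94 fell, and 43 cell cycle genes rose. It left 3 of 11 homologous recombination, 5 of 13 spindle, 9 of 14 replication, 5 of 13 centrosome, 3 of 5 matrix glycoprotein and 3 of 6 laminin and desmosome genes. Leaving genes out changes no ratio of those that remain. Of the cell cycle promoters, 23.3% held a CHR match before the start site, and 35.0% on the gene strand alone (51.7% otherwise), where CCAAT came to 50.0% (66.7%) and E2F to 6.67% (15.0%). A minimum mean of 100, leaving out the deletion and the means of the combined table moved none of the counts of all genes, absent genes and cell cycle genes by over 1.5 times, and a pseudocount of 1, tried on all genes, moved neither of their counts. The ratios of genes with means of a few normalized counts are the least certain, since what 1 read is worth is unknown.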

Other observations

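The lists and symbol families of this paragraph were all chosen after values were seen. Some of their genes, Cep55, Sass6, Ckap5, Nbn and the mitotic kinesins among them, are also on the cell cycle lists. Lysosomal genes formed a further group. Of 66 tested, 6 were in the C57BL/6J allele table, all lower (-1.19 for Hyal1, which breaks down hyaluronan, to -0.53 for Ctsl), against 28 lower and 0 higher in the combined comparison. Besides the laminin chains, Itgb4, the hemidesmosomal integrin chain, fell (-1.43), so that 6 of 29 laminin, hemidesmosome and desmosome genes were in the table, all lower, with a median of -1.28. Of 62 centrosome genes, 13 were in it, all higher, with a median of 0.83, from Cep170 (0.63) to Cep55 (1.70). Of 21 genes of telomere protection and DNA ends, 6 rose, among them Rif1 (1.25) and Terf1 (1.03). The shares of these 4 lists, in the order given, were 9.09%, 20.7%, 21.0% and 28.6%. Among all genes tested, 0.934% were lower and 1.16% higher. Zinc finger genes with a Zfp symbol rose in 8 of 342 cases and fell in 0, a share of 2.34% against 1.16% higher among all genes tested. In the combined comparison 60 of the 342 were higher, where 5.13% of all genes tested were, and 0 lower. Of 39 kinesin genes, 5 rose and 2 fell, a share of 17.9% against 2.09% in either direction among all genes tested. The falls were of Kif1a (-1.07) and Kif1c (-0.62), which carry cargo, and the rises were of the mitotic Kif20a, Kif18b, Kif23, Kif14 and Kif11.

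The agouti gene a (chr2:154617138-154876748, NCBI37), which sets yellow pigment in hair, was the largest difference in the table. Its C57BL/6J allele mean was 0.62 in +129/+Bl6 lines and 162 in Df/+Bl6 lines (8.03), and the 129S5 table lists it at 0.31 and 38.0 (6.94). It is absent from the combined table and is the 1 gene of the 326 not among the 15531 listed as tested. The ratio rests on under 1 normalized count in +129/+Bl6 lines and has no interval, and the gene's span overlaps Raly on the same strand. Whether these reads come from the gene's own place on the C57BL/6J chromosome is not known from the files used here, so the values are those of reads assigned to that allele only. Gm16096 (chr9:40588825-40592264, NCBI37) went from 4.81 to 47.1 (3.29), beside 1.45 in the 129S5 table.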
